A study of Mus musculus with 94 samples.

Results

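The genes described here are 10 genes of glycolysis, taken by symbol from a read-count table of single mouse basophils that lists 46078 genes. They are the glucose transporters Slc2a1 and Slc2a3, the hexokinase Hk2, the phosphofructokinase Pfkp, the aldolase Aldoa, the dehydrogenase Gapdh, the kinase Pgk1, the mutase Pgam1, the pyruvate kinase Pkm and the lactate dehydrogenase Ldha. All 10 were found in the table. The cells were bone marrow cells of 3 mice, female and of the strain C57BL/6, whose age is not given in the sources used here, with no treatment named. The cells of both groups were live, lineage-negative and Sca1-negative and carried the IgE receptor FcεRI, and they were split by the surface protein CD34 into a CD34-negative and a CD34-positive gate of 47 cells each. Each well held 1 cell and ERCC spike-in RNA, an artificial RNA mix added to every reaction. The labels do not say which mouse gave which cell, so each gate counted as 1 sample, no test was possible, and every difference below is a description of these cells.

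Glycolysis breaks glucose down to pyruvate in the cytosol and yields ATP. Glucose enters through facilitative transporters, hexokinase traps it as glucose 6-phosphate, phosphofructokinase commits it to the pathway, and aldolase splits the sugar. The enzymes from Gapdh to pyruvate kinase recover the energy, and lactate dehydrogenase turns pyruvate to lactate and restores NAD+. Most steps have several isozymes encoded by separate genes, so a count for 1 gene is not the count for a step. Growing blood progenitors and activated granulocytes are both known to rely on glycolysis.

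Of the 94 cells, 92 passed the limits on depth and quality, 46 in each gate, with 262944 to 1154738 gene reads per cell. The CD34-positive cells had a median of 14.4 gene reads per ERCC read and the CD34-negative cells 6.87. A difference in RNA per cell and a difference in recovery per well cannot be told apart from this ratio, so ratios are given on both scales. The basophil markers Fcer1a, Ms4a2, Cd200r3, Mcpt8, Prss34, Cpa3 and Gata2 had reads in all 92 cells and the other 4 of that list, Hdc, Il4, Il3ra and Il6, in 91, 83, 81 and 79. Of these 11 genes, 3 were higher and 3 lower by at least 1 log2 unit per gene read, where 21.7% of all compared genes were higher and 10.1% lower. Per ERCC read, 5 were higher and 0 lower, where 57.8% of all were higher and 2.76% lower. The median level of Cd34 itself was 0 CPM (read counts scaled to a total of 1e6 gene reads per cell or gate) in the CD34-negative and 20.3 CPM in the CD34-positive cells. The mast cell list had 4 of its 8 genes at 0 reads in both gates and summed to 0.0299 CPM in the CD34-negative and 7.33 CPM in the CD34-positive gate. Of the 7 genes of the monocyte and dendritic cell list, Siglech and Flt3 had no read from the CD34-negative gate and Cd14 none from the CD34-positive gate, while Ccr2, with reads in 56 cells, had 493 and 40.5 CPM and made up most of the sum. The sum of the list per cell ran from 0 to 2461 CPM in the CD34-negative and from 0 to 813 CPM in the CD34-positive gate. The highest CD34-negative value was that of cell 10, described below. Of the other marker lists, the neutrophil gene Cxcr2 had 720 and 131 CPM and the killer cell gene Nkg7 78.6 and 696 CPM, while of the other neutrophil genes Lcn2 had 19.6 and 66.6 CPM, Mmp8 0.0299 and 3.8 CPM, Camp and Ltf had no read, and S100a8, S100a9 and Ngp had under 1 CPM in each gate, as had the T cell gene Cd3e. Of the eosinophil list, Ccr3 had 97.9 and 4.70 CPM with reads in 36 cells, Siglecf 76.5 and 60.3 CPM, and Prg2 0 and 48.0 CPM with reads in 4 cells, while Epx had under 1 CPM in each gate and Il5ra no read. Of the megakaryocyte list, Itga2b had 1444 and 930 CPM with reads in 91 cells, while Pf4 had no read. The part of these genes in the glycolysis values was not tested.

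Cell 10 of the CD34-negative gate went against its label. Its basophil markers summed to 236 CPM, where the median of the gate was 23297 CPM, while Cd74, at 12273 CPM, and H2-Aa, at 3548 CPM, both genes of antigen presentation, had a gate median of 0. Its glycolysis genes summed to 26.6 CPM, all from Aldoa. Cells 25 and 36 of the same gate stood apart in the other direction, with basophil markers of 134603 and 141191 CPM, cell cycle genes of 11213 and 10226 CPM against a gate median of 208, and the granule gene Mpo at 1655 and 2114 CPM against 1.28. Their glycolysis genes summed to 2087 and 2543 CPM. Without these 3 cells the median log2 difference of the 10 genes per gene read was -0.37, where it was -0.36 with them, and the member that moved most, Slc2a1, went from -1.04 to -0.96. Whether these cells belong in the gate was not tested.

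The reads were 50 bases long, and several glycolysis genes have pseudogene copies across the mouse genome, so the transcripts were first compared with every other annotated transcript in windows of that length. A window was counted as shared when another gene elsewhere held it with at most 2 mismatches, and as identical when it held it letter for letter. The following window of the Gapdh coding sequence, transcript bases 647 to 696, is shown because it had the most pseudogene copies of the coding windows searched. It is thus the extreme and not a typical window. At least 168 pseudogenes held it within 2 mismatches and at least 74 held it letter for letter. The 3 copies printed under it lie on chromosomes 17, 9 and 8, and capitals mark a base that differs from Gapdh.
Gapdh: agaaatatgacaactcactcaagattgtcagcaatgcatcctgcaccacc
AC091332.1: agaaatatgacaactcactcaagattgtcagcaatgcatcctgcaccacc
3000002C10Rik: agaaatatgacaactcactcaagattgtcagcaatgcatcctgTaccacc
Gm10284: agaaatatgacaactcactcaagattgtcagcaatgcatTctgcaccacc
A read from this window cannot be placed at Gapdh rather than at AC091332.1, and 1 sequencing error makes it match another copy.

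Slc2a1, Slc2a3, Hk2 and Pfkp shared between 0% and 0.256% of their windows with a gene elsewhere and had no identical window. Shared windows made up 58.5% of Aldoa, 50.7% of Ldha, 64.5% of Pkm, 41.9% of Pgam1, 68.4% of Pgk1 and 85.0% of Gapdh. By that measure Aldoa, Ldha and Pkm lay above Pgam1, so the order of the genes depends on the measure. Identical windows made up 13.9% of Aldoa, 17.1% of Ldha, 30.5% of Pkm, 41.6% of Pgam1, 68.1% of Pgk1 and 82.5% of Gapdh. The last 3 of these were also the members with the fewest reads: Gapdh had 201 among the CD34-negative and 550 among the CD34-positive cells, Pgk1 398 and 533, and Pgam1 330 and 332, where the other 7 genes had at least 844 in each gate. The table's category for reads aligned to several places held 0% of reads, and how such reads were handled is not given in the sources used here. In Gapdh, 219 other genes shared at least 100 windows, 210 of them pseudogenes, and those in the table held 2882 reads in the kept cells, more than Gapdh itself. The levels of Gapdh, Pgk1 and Pgam1 may miss reads of the shared windows, and what share of these RNAs went uncounted was not tested.

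**Figure D1:**
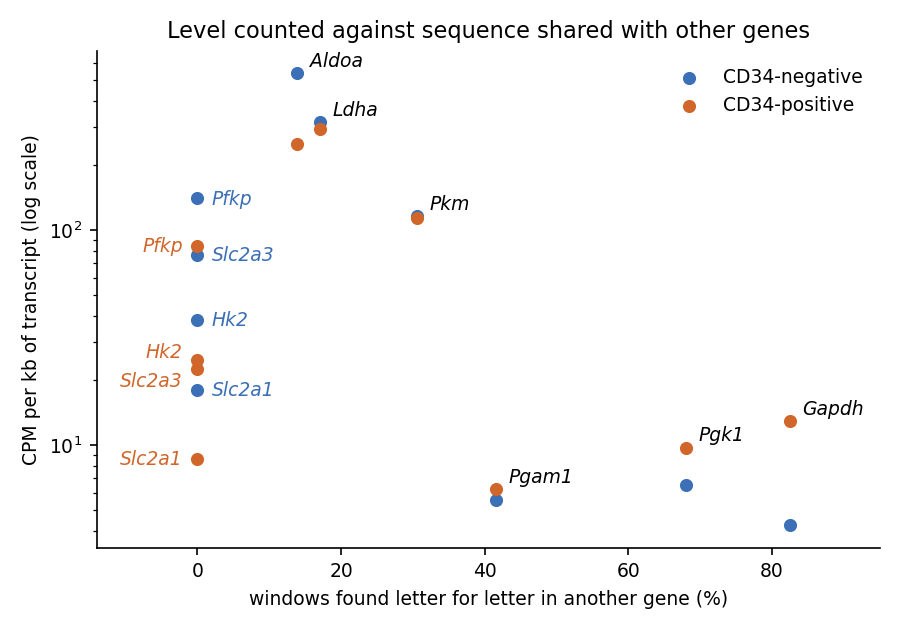
Level of each glycolysis gene in CPM per kb of transcript (log scale) against the percent of its 50-base windows that another annotated gene holds letter for letter; each gene has 1 point per gate. The 3 genes with 41.6% or more of such windows, Pgam1, Pgk1 and Gapdh, lie at 12.9 CPM per kb or lower in both gates, and Aldoa and Ldha lie highest.

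Summed over the 10 genes, glycolysis took a larger share of the gene reads in the CD34-negative than in the CD34-positive cells. The sum per cell had a lowest value of 26.6, a median of 2833 (95% interval of the median 2472 to 3209) and a highest of 5082 CPM over CD34-negative cells. Over CD34-positive cells the lowest was 649, the median 1781 (1459 to 1973) and the highest 3408 CPM. The ranges overlapped, but only 2 of the 46 CD34-positive cells lay above the CD34-negative median, and the CD34-positive cell was the higher one in 19.2% of all pairs with 1 cell from each gate. The log2 ratio of the summed reads, CD34-positive over CD34-negative, was -0.63 per gene read. The gates also differed in the median mitochondrial share of a cell, 1.63% in CD34-negative against 2.23% in CD34-positive cells, and in the median number of genes found, 5303.5 against 7511.5, and the part of either in this difference was not tested.

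Scaled to the spike-in the order of the gates turned over. The sum per 1000 ERCC reads had a median of 19.5 (16.7 to 22.6) in the CD34-negative gate, with a range from 0.108 to 54.3. It had a median of 22.5 (17.9 to 31.4) in the CD34-positive gate, with a range from 5.21 to 62.0. The intervals of the medians overlapped, 27 of 46 CD34-positive cells lay above the CD34-negative median, and the log2 ratio of the summed reads was 0.33 per ERCC read. Gene reads per ERCC read were themselves higher by 0.97 log2 units in the CD34-positive gate, so a lower share of gene reads and a similar amount per spike-in read stood side by side in the same cells.

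**Figure D2:**
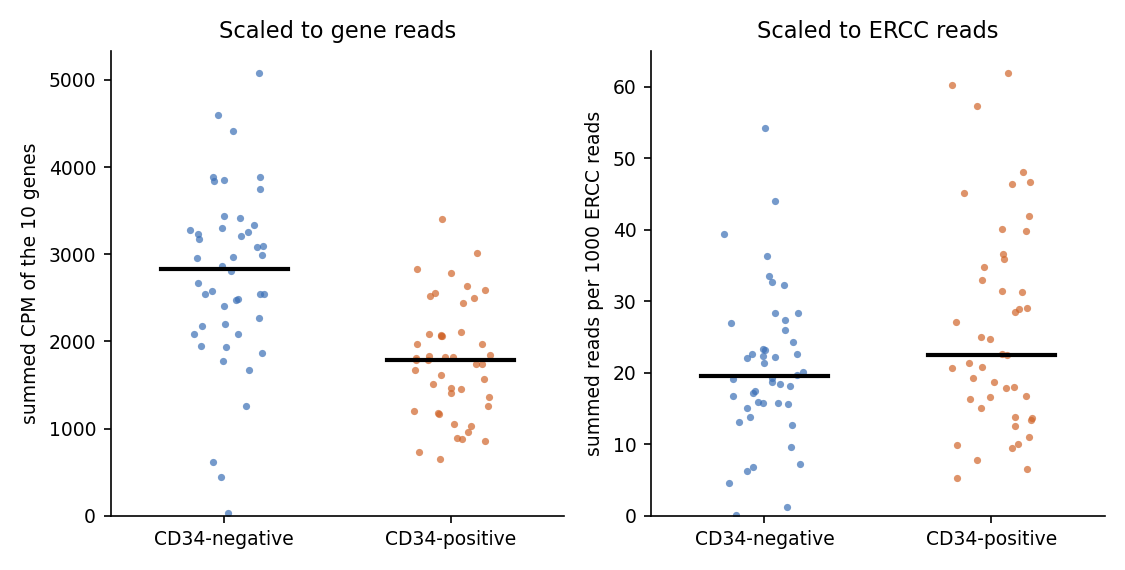
Summed level of the 10 glycolysis genes in each cell, as CPM of gene reads (left) and as reads per 1000 ERCC reads (right), for 46 cells per gate; bars are medians. On the left the medians are 2833 and 1781 CPM with most CD34-positive cells below the CD34-negative median, and on the right they are 19.5 and 22.5 with the 2 clouds over each other.

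Across the 12460 genes that had a read in 10 or more of the kept cells, 21.7% were higher and 10.1% lower by at least 1 log2 unit in the CD34-positive gate per gene read, and the median log2 difference was 0.19. Of the 10 glycolysis genes, 1 was higher (Gapdh) and 3 were lower (Slc2a1, Slc2a3 and Aldoa) by that much. The ratios of the 10 genes ran from -1.74 to 1.46, with a median of -0.36. This median was -0.59 with scran and -0.57 with TMM factors and -0.73 without Gapdh, Pgk1 and Pgam1. Per ERCC read, 57.8% of all genes were higher and 2.76% lower, with a median of 1.20, and of the 10 genes 3 were higher (Gapdh, Pgk1 and Pgam1), none was lower, and the median was 0.60. With counts of 10 genes, 1 sample per gate and no test, these shares are read as a description only. Slc2a1, Slc2a3, Hk2, Pfkp and Aldoa lay below the lower quartile of all genes on both scales, while Pkm and Ldha lay between the quartiles on both.

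**Figure D3:**
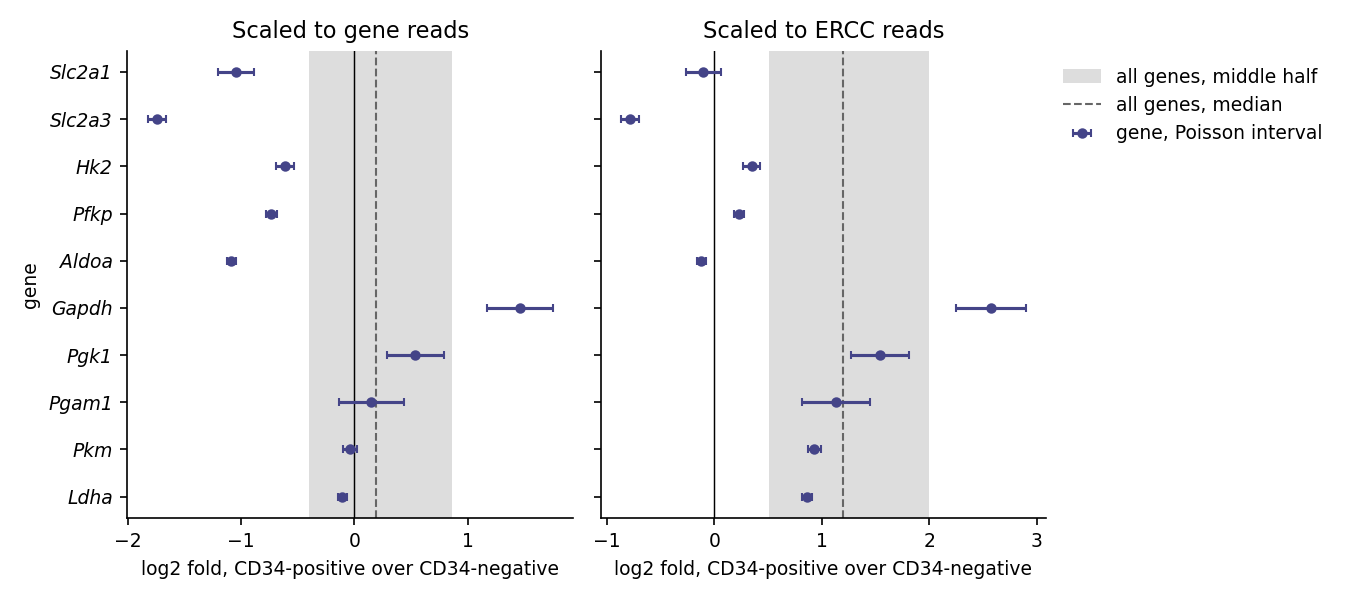
Log2 ratio of summed reads, CD34-positive over CD34-negative, for each glycolysis gene, per gene read (left) and per ERCC read (right); bars are Poisson intervals of counting error, the dashed line is the median of 12460 genes and the grey band runs from their lower to their upper quartile. Slc2a1, Slc2a3, Hk2, Pfkp and Aldoa lie left of the band in both panels, Pkm and Ldha inside it, and Gapdh right of it.

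Of the glucose transporters, Slc2a3 had the lowest ratio of the 10 genes on both scales. Slc2a3 (ENSMUSG00000003153, chr6:122727809-122801640 in mm10), which encodes the high-affinity transporter GLUT3, had a median of 186 CPM per cell in the CD34-negative gate, with a range from 0 to 1574, and 21.6 CPM in the CD34-positive gate, with a range from 0 to 566. The lower quartile of the CD34-negative cells was 22.4 CPM, about the CD34-positive median, and 7 of 46 CD34-positive cells lay above the CD34-negative median. In the summed reads it had 303 CPM (297 to 309) and 89.8 CPM (86.4 to 93.3), a log2 ratio of -1.74 (-1.83 to -1.66), lower than in all but 2.70% of the tested genes. Slc2a3 was also lower per ERCC read, by a log2 ratio of -0.79 (-0.87 to -0.71), which was -2.06 by the ratio of medians over cells. After 200000 gene reads were drawn from each cell, it was found in 39 of 46 CD34-negative cells (84.8%, exact binomial interval 71.1 to 93.7) and in 31 of 46 CD34-positive cells (67.4%, 52.0 to 80.5).

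Slc2a1 (ENSMUSG00000028645, chr4:119108711-119137983), which encodes GLUT1, was sparse. It had no read in 25 of 46 CD34-negative and 30 of 46 CD34-positive cells, so the median was 0 CPM in both gates, and its highest values were 955 and 509 CPM. The summed levels were 59.0 and 28.1 CPM, a log2 ratio of -1.04 (-1.20 to -0.89). Single cells set this value: cell 19 of the CD34-negative gate held 23.5% of that gate's Slc2a1 reads, and cell 14 of the CD34-positive gate held 33.4%. Without the first the ratio was -0.68, and without the second -1.58. Cell 19 was also the CD34-negative cell with the highest Slc2a3 level. Per ERCC read the ratio of Slc2a1 was -0.10 (-0.27 to 0.06), and drawing gave 18 and 14 cells with a read, whose intervals overlapped.

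Hk2 (ENSMUSG00000000628, chr6:82725025-82774454), a hexokinase that binds mitochondria and is known to respond to growth signals and low oxygen, had a median of 129 CPM in the CD34-negative and 103 CPM in the CD34-positive cells, with ranges from 0 to 1007 and from 0 to 652. The intervals of the medians, 70.1 to 201 and 37.4 to 169 CPM, overlapped. The summed reads gave 211 and 137 CPM and a log2 ratio of -0.61 (-0.69 to -0.54) per gene read and 0.35 (0.27 to 0.43) per ERCC read. It was found in 42 and 43 of 46 cells. With cells numbered 7 to 42 alone, the ratio per gene read was -0.22.

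Hk2 was not the most counted hexokinase. Hk3, the hexokinase of myeloid cells, held 78.7% (78.3 to 79.0) of the reads of Hk1, Hk2 and Hk3 among the CD34-negative cells and 67.5% (66.9 to 68.0) among the CD34-positive cells, and divided by transcript length its share was 84.6% and 74.3%. Its summed level was 1178 CPM in the CD34-negative and 615 CPM in the CD34-positive gate, a log2 ratio of -0.94 per gene read and 0.03 per ERCC read. Hk1, the broadly expressed hexokinase, went the other way, with 7.25% (7.03 to 7.48) of the hexokinase reads among the CD34-negative and 17.5% (17 to 17.9) among the CD34-positive cells. Its level was 109 and 159 CPM, a log2 ratio of 0.55 per gene read and 1.52 per ERCC read. The share of Hk2 was 14.1% and 15.1%. The intervals of these shares count reads and not cells. Per length, Hk3 had the most reads of the 3 genes in 42 of 46 CD34-negative cells and in 32 of 46 CD34-positive cells, while Hk1 had the most in 0 and in 12. A count of 0 in 46 cells, with 3 cells taken as the limit, allows a share of up to 6.52%. None of the windows of Hk1 and Hk3 was shared with a gene elsewhere.

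**Figure D4:**
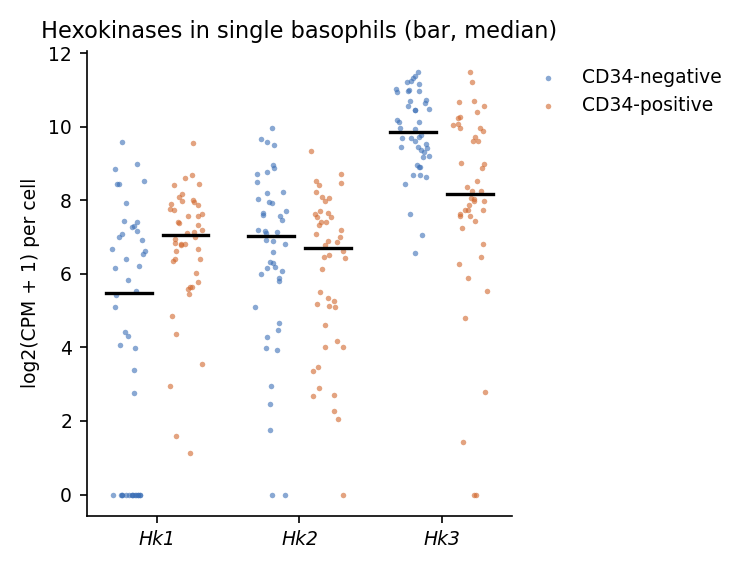
Level of Hk1, Hk2 and Hk3 in each cell as log2(CPM + 1), for 46 cells per gate; bars are medians. Hk3 lies highest in both gates and is lower in the CD34-positive gate, Hk1 has the higher median in the CD34-positive gate, and the 2 clouds of Hk2 cover nearly the same range.

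Pfkp (ENSMUSG00000021196, chr13:6579768-6648777), the platelet-type subunit of phosphofructokinase, had a median of 538 CPM in the CD34-negative cells, with a range from 0 to 1541, and 323 CPM in the CD34-positive cells, with a range from 0 to 1101. The intervals of the medians, 318 to 715 and 207 to 475 CPM, overlapped, and 9 of 46 CD34-positive cells lay above the CD34-negative median. Its log2 ratio was -0.73 (-0.78 to -0.69) per gene read and 0.23 (0.18 to 0.28) per ERCC read. Among the phosphofructokinase genes it held 91.7% of the reads among the CD34-negative and 83.6% among the CD34-positive cells, and Pfkl, the liver-type subunit, held 7.57% and 13.3%. The annotation places Pitrm1 over part of Pfkp, and 701 of the 4096 windows of Pfkp are shared with that overlapping gene, so some of its reads may have been set aside as ambiguous.

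Aldoa (ENSMUSG00000030695, chr7:126795234-126800751), which splits fructose 1,6-bisphosphate, was the only member with a read in all 92 cells. Its level ran from 2.06 over a median of 621 to 1982 CPM in the CD34-negative gate, and from 40.3 over a median of 333 to 888 CPM in the CD34-positive gate. The intervals of the medians, 499 to 889 and 261 to 404 CPM, did not overlap, and 7 of 46 CD34-positive cells lay above the CD34-negative median. The summed levels were 809 and 381 CPM, a log2 ratio of -1.09 (-1.13 to -1.04) per gene read, and -0.12 (-0.17 to -0.08) per ERCC read. Each gate's top cell held under 7% of its reads. Its ratio per gene read was -1.01 or lower under every setting tried.

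Gapdh (ENSMUSG00000057666, chr6:125161715-125166467), which makes NADH from glyceraldehyde 3-phosphate, had a median of 3.49 CPM in the CD34-negative cells, with a range from 0 to 57.8, and 10.5 CPM in the CD34-positive cells, with a range from 0 to 108. The intervals of the medians, 2.72 to 4.78 and 7.80 to 15.8 CPM, did not overlap, and 36 of 46 CD34-positive cells lay above the CD34-negative median. The log2 ratio was 1.46 (1.17 to 1.75) per gene read and 2.57 (2.25 to 2.9) per ERCC read. With the reads of its near-identical copies added, 1441 in each gate, the ratio was 0.43 per gene read and 1.40 per ERCC read. The copies and Gapdh itself thus differed in their ratio, and the value of Gapdh depends on how its shared windows are counted.

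Pgk1 (ENSMUSG00000062070, chrX:106187100-106203699), the first step that makes ATP, had a median of 4.73 CPM in the CD34-negative and 13.4 CPM in the CD34-positive cells, with ranges from 0 to 66.5 and from 0 to 47.7. Its log2 ratio was 0.54 (0.29 to 0.79) per gene read and 1.54 (1.28 to 1.81) per ERCC read, and the latter was 2.33 by the ratio of medians over cells. It was found in 24 and 35 of 46 cells after drawing, 52.2% (37 to 67.1) and 76.1% (61.2 to 87.4). Pgam1 (ENSMUSG00000011752, chr19:41911923-41918660), which moves the phosphate of phosphoglycerate, had medians of 6.46 and 8.40 CPM with overlapping intervals, and a log2 ratio of 0.15 (-0.14 to 0.44) per gene read and 1.13 (0.82 to 1.44) per ERCC read. The interval of Pgam1 per gene read held 0, and its sign turned to -0.17 with the reads of its copies added and was also negative with scran and TMM factors.

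Pkm (ENSMUSG00000032294, chr9:59656368-59679375), which makes pyruvate, was at nearly the same share in both gates. Its medians were 264 and 244 CPM, with ranges from 0 to 961 and from 13.5 to 801, and the summed levels were 283 (277 to 288) and 275 (270 to 281) CPM. The log2 ratio was -0.04 (-0.10 to 0.02) per gene read and 0.93 (0.87 to 0.99) per ERCC read. It was found in 43 of 46 CD34-negative cells and in all 46 CD34-positive cells. With cells numbered 7 to 42 alone its ratio per gene read was 0.19.

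Ldha (ENSMUSG00000063229, chr7:46841475-46855627) showed the same picture. Its level ran from 0 over a median of 551 to 1476 CPM in the CD34-negative gate and from 85.1 over a median of 459 to 1300 CPM in the CD34-positive gate, and the intervals of the medians, 372 to 755 and 316 to 573, overlapped. The log2 ratio was -0.11 (-0.15 to -0.06) per gene read and 0.86 (0.82 to 0.90) per ERCC read. Of the reads of Ldha, Ldhb and Ldhc, Ldha held 93.3% among the CD34-negative and 96.6% among the CD34-positive cells. Ldhb, the subunit of heart-type lactate dehydrogenase, had 2 reads among the CD34-negative and 0 among the CD34-positive cells.

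**Figure D5:**
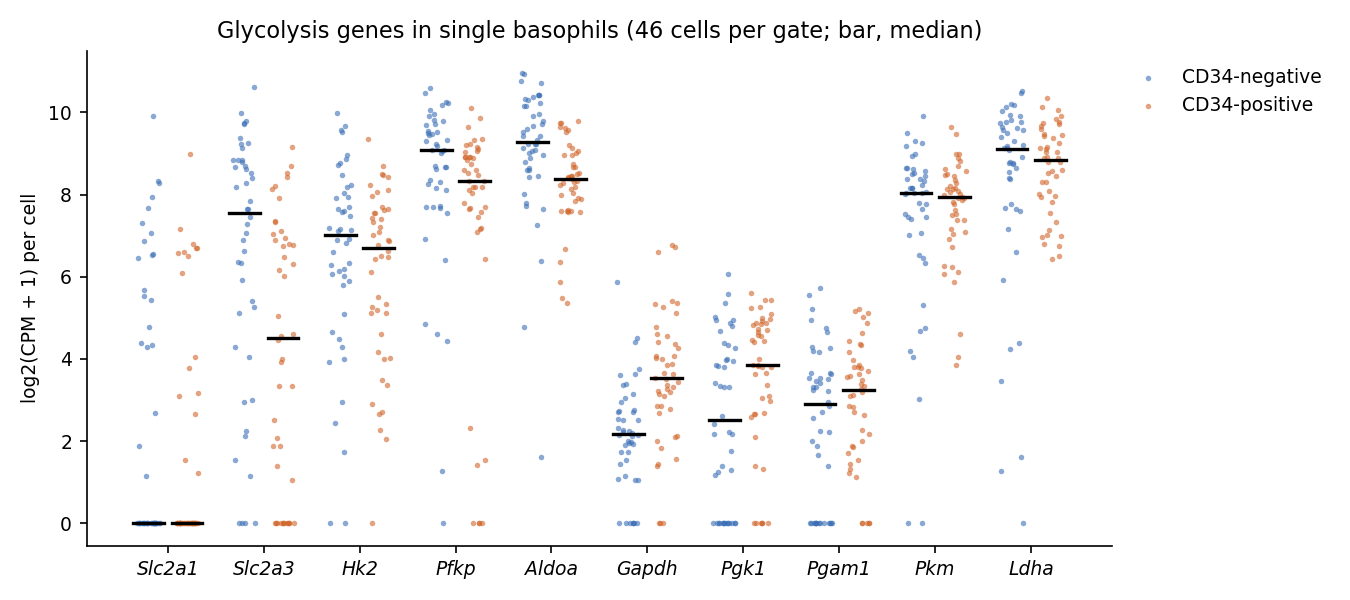
Level of each glycolysis gene in each cell as log2(CPM + 1), for 46 cells per gate, with genes in the order of the pathway; bars are medians and points at 0 are cells without a read. The CD34-negative medians are higher for Slc2a3, Pfkp and Aldoa, the CD34-positive median is higher for Gapdh, and the clouds of Hk2, Pkm and Ldha cover nearly the same range.

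Per kb of transcript, the median level over CD34-negative cells was highest for Aldoa at 411, followed by Ldha at 312, Pfkp at 130, Pkm at 108, Slc2a3 at 46.9 and Hk2 at 23.4 CPM per kb, with the 4 others at 3.64 or lower. Each of these genes overlapped the next in its quartiles, down to Hk2, whose lower quartile of 10.1 lay above the upper quartile of Pgam1 at 6.48. In the CD34-positive cells Ldha led at 260, followed by Aldoa at 220, Pkm at 100.3, Pfkp at 78.0 and Hk2 at 18.7 CPM per kb. Here Ldha and Aldoa overlapped, as did Pkm and Pfkp, while the lower quartile of Aldoa, 152, lay above the upper quartile of Pkm, 142, and that of Pfkp, 43.2, above that of Hk2, 35.2. These orders hold for placed reads, and the shared windows of Aldoa, Ldha and Pkm differ from those of Pfkp and Hk2.

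The other genes of the pathway were taken from lists, and genes with reads in at least 10 cells were counted. Each count is set beside the share of all such genes, which was 21.7% higher and 10.1% lower by at least 1 log2 unit per gene read, and 57.8% higher and 2.76% lower per ERCC read. Ratios of single genes are given per gene read and then per ERCC read. For the 39 genes named by rule from these lists, each cell was left out in turn, which moved 11 ratios per gene read and 12 per ERCC read by more than 1.5 times. It took 11 and 4 of them across 1 log2 unit in either direction. A single cell below is given by its number, and the value without it is per gene read unless stated.

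Of 22 other glycolytic enzymes and isozymes, 14 were counted, and 3 of these were higher and 2 lower per gene read, with a median of 0.28, and 8 higher and 0 lower per ERCC read, with a median of 1.35. The 2 lower genes were Pgam2, the muscle-type mutase, at -1.08 but under 10 CPM and named after its value was seen, and the lactate dehydrogenase Ldhc at -1.07 (-0.73 without CD34-negative cell 28) and -0.15. Among genes with at least 10 CPM in a gate, the highest were Eno3, the muscle-type enolase, at 2.27 and 3.55, and the phosphofructokinase Pfkm at 1.26 and 2.39. CD34-positive cell 1 held 70.2% of the Eno3 reads of its gate and CD34-negative cell 25 held 60.7%, and the ratio was 0.70 without the first and 3.15 without the second. That of Pfkm was 0.68 without CD34-positive cell 2 and 1.94 without CD34-negative cell 32. Gpi1, which converts glucose 6-phosphate to fructose 6-phosphate, had 610 and 436 CPM, and its log2 ratio turned from -0.48 per gene read to 0.48 per ERCC read. Of its windows 50.4% were shared elsewhere, 1298 of them with Gm1840, which held 20981 reads in the kept cells. Tpi1, which interconverts the 2 products of aldolase, had 77.3 and 149 CPM and ratios of 0.94 (1.17 without CD34-negative cell 18) and 1.92. Eno1, the main enolase, had 95.5 and 71.9 CPM and a ratio that turned from -0.41 to 0.56, and 72.2% of its windows were identical elsewhere.

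Of 9 counted genes of sugar and lactate transport and of fructose 2,6-bisphosphate metabolism, 4 were higher and 2 lower per gene read, with a median of 0.66, and 5 higher and 1 lower per ERCC read, with a median of 1.63. Slc2a6, a glucose transporter family member, had 213 and 54.1 CPM, ratios of -1.96 and -1.01, the latter -0.74 without CD34-negative cell 21. Txnip, which restrains glucose uptake, had 2439 and 639 CPM, ratios of -1.93 (-1.96 to -1.90) and -0.97, and was found in all 46 cells of each gate. The monocarboxylate transporter Slc16a1 had 4 reads in CD34-negative and 449 in CD34-positive cells, 32.1% of the latter in 1 cell. Its ratios were 3.83 (3.48 to 4.07) and 7.93, the latter 9.87 without CD34-negative cell 12. The CD34-negative level was 0.12 CPM, so the pseudocount of 1 CPM largely sets the first ratio and its interval. Slc2a8 had ratios of 1.43 and 2.51. CD34-positive cell 21 held 46.1% of its reads in that gate and CD34-negative cell 32 held 51.0%, and the ratio was 0.62 without the first and 2.26 without the second. Slc16a3, the transporter known for lactate export, had 74.4 and 41.7 CPM and a ratio that turned from -0.82 (-1.11 without CD34-positive cell 23) to 0.13.

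Of 10 counted genes of the hypoxia-inducible and MYC factors, 3 were higher and 1 lower per gene read, with a median of -0.20, and 3 higher and 0 lower per ERCC read, with a median of 0.77. Hif1a, the factor known to drive glycolysis genes at low oxygen, had 89.3 and 78.3 CPM and ratios of -0.19 and 0.78, and the first was 0.03 without cells 25 and 36. Myc, which drives glycolysis genes in growing cells, had 59.5 and 127 CPM, ratios of 1.08 and 2.06, and the first was 0.52 without CD34-positive cell 1. Its partner Max had 98.7 and 30.5 CPM, ratios of -1.66 and -0.73, and the second was -1.07 without CD34-positive cell 33. The oxygen sensor Egln1 had ratios of 1.59 and 2.76, the first 2.43 without CD34-negative cell 29, which held 55.5% of 146 reads, and that of Egln2 turned from -0.60 to 0.35. Of 12 counted targets of the hypoxia factor outside glycolysis, 4 were higher and 5 lower per gene read, with a median of -0.74, and 4 higher and 1 lower per ERCC read, with a median of 0.22. They ran from Ddit4, at -2.51 and -1.91, and Mxi1, at -1.35 and -0.40, to Car9, at 3.60 and 5.02, and Vegfa, at 4.31 and 9.35 (7.38 to 12.5). Vegfa had 2 CD34-negative reads against 600, so the pseudocount of 1 CPM largely sets its ratio per gene read, and of the 600 reads 53.5% were in CD34-positive cell 7. The ratio of Ddit4 was -3.32 without CD34-positive cell 46, which held 59.5% of 84 reads. That of Car9 was 4.66 without CD34-negative cell 31, which held 73.5% of 83 reads, and that of Vegfa was 3.31 without cell 7.

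The routes beside and after glycolysis had list medians from 0.04 to 0.41 per gene read and from 1.01 to 1.38 per ERCC read. In the citrate cycle, 4 of 16 genes were higher and 0 lower per gene read, and 13 higher and 0 lower per ERCC read. They ran from Idh3g, at -0.29 and 0.67, to Sdhc, at 1.54 and 2.55, and Idh3a, at 2.20 and 3.25, the first 3.48 without CD34-negative cell 36, which held 64.0% of its reads in that gate. In the pentose phosphate route, 3 of 10 were higher and 0 lower per gene read, and 6 higher and 0 lower per ERCC read, from Taldo1, at -0.78 and 0.18, to Rpia, at 1.22 and 2.24, and H6pd, at 1.23 and 2.21. For pyruvate entry into mitochondria, 4 of 12 were higher and 2 lower per gene read, and 6 higher and 1 lower per ERCC read. Pdk2, a kinase that switches off pyruvate dehydrogenase, was at -2.53 and -1.65, the pyruvate carrier subunit Mpc2 at -1.34 and -0.38, the dehydrogenase component Pdhx at 2.97 and 4.38, and the phosphatase Pdp1 at 4.41 and 6.42, the first 5.20 without CD34-negative cell 31, which held 90.0% of 30 reads, and 3.70 without CD34-positive cell 33. Pdp1 had 0.897 CPM in the CD34-negative gate, so its ratio per gene read also depends on the pseudocount of 1 CPM. In glycogen metabolism, 3 of 10 were higher and 3 lower per gene read, and 5 higher and 0 lower per ERCC read, from the branching enzyme Gbe1, at -1.51 and -0.60, to Pgm1, at 2.49 and 3.61. The ratio of Gbe1 per ERCC read was -1.18 without CD34-positive cell 33, and that of Pgm1 per gene read was 3.67 without CD34-negative cell 13, which held 64.8% of 236 reads.

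The gates also differed in lists that are not metabolic. Of 20 cell cycle genes, 18 were higher by at least 1 log2 unit per gene read and 0 lower, where 21.7% of all genes were higher and 10.1% lower. The sum of the list had a median of 208 CPM over CD34-negative and 2782 CPM over CD34-positive cells, and cells 25 and 36 of the former had 11213 and 10226 CPM. Per ERCC read, 20 were higher and 0 lower. Of 9 counted progenitor genes, 8 were higher and 0 lower, and of 9 counted immediate-early genes, which respond quickly to stimulation, 0 were higher and 7 lower. Per ERCC read, 9 of the progenitor genes were higher and 0 lower, and 1 of the immediate-early genes was higher and 2 lower, where 57.8% of all genes were higher and 2.76% lower. The immediate-early genes summed to 389 CPM in CD34-positive and 1251 CPM in CD34-negative cells. Their part in the glycolysis values was not tested.

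Spearman's rho within a gate between pairs of the 9 genes with reads in at least 46 cells, over the 46 cells of a gate, had a median of 0.13 in the CD34-negative gate, from -0.19 to 0.31 over 36 pairs, and of 0.05 in the CD34-positive gate, from -0.42 to 0.33. Pgk1 and Pgam1 had the highest lower value of the 2 gates, with 0.30 and 0.33, and Aldoa and Gapdh had -0.42 in the CD34-positive and 0.06 in the CD34-negative gate. All cells of a gate share the sort, and the 2 measures of a pair share a cell's depth, so these values are descriptions. With counts this sparse, weak values are no finding.

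The mean log2 level of those 9 genes in a cell was lower where the cell's mitochondrial share was higher, with a rho of -0.64 over 46 CD34-positive cells and -0.21 over 46 CD34-negative cells, or -0.27 without cell 10. Without the 2 farthest cells of a gate, Pearson's r went from -0.47 to -0.59 in CD34-positive and from -0.36 to -0.08 in CD34-negative cells. The rho of that mean level with the share of reads set aside as ambiguous was -0.57 and -0.24. Its rho with the cell cycle list was 0.10 in the CD34-positive and 0.25 in the CD34-negative gate, with the progenitor list -0.33 and 0.18, and with the citrate cycle list 0.28 and 0.39. With the targets of the hypoxia factor it was 0.23 and 0.28, with Hif1a -0.01 and 0.08, and with Myc -0.05 and 0.36, the last 0.40 without cell 10. The sum of the 10 genes also differed by cell number: its median in the CD34-negative gate was 3511 CPM for the 6 cells with numbers 1 to 6, 2675 CPM for numbers 7 to 42, and 1258 CPM for the 5 cells with numbers 43 to 47, while in the CD34-positive gate it was 1610, 1763 and 2061 CPM. The labels do not say what the numbers stand for. Among cells numbered 7 to 42, the median log2 difference of the 10 genes was -0.26 per gene read and 0.76 per ERCC read.

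By rank correlation with that mean level in both gates, over 5558 other genes with reads in at least 46 cells, the gene most like the members was Lypla2, with a rho of 0.45 and 0.47 in the CD34-negative and CD34-positive cells, followed by Chtf8, Rab11b, Gm6560, M6pr-ps, Rab11b-ps2, Gm9531, Gm8399, Tpi1 and Mapkapk3. Tpi1, with 0.46 and 0.37, was the only one of the 10 from the glycolysis lists. Gm6560, with 0.43 and 0.51, is a pseudogene that shares 1436 windows with Pkm and held 3550 reads in the kept cells, so it may carry reads of a member. The least like were Mir5110, at -0.45 and -0.42, Ppnr, Rpl39-ps, mt-Rnr1 and Gm8186. The median over the 5558 genes was 0.07 and 0.05. Per ERCC read, 2 of the 10 genes stayed among the first 10, Gm6560 and Gm8399, while Lypla2 ranked 48. The median over the 5558 genes was 0.25 and 0.26 on that scale.

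RefSeq promoter entries (GRCm38.p6) were matched by symbol for 9 of the 10 genes, all but Slc2a3, and 13 entries were found. The 250 bases before each start were searched on both strands for the core of the hypoxia-response element, ACGTG or GCGTG, and for the E-box CACGTG bound by MYC and MAX, which holds ACGTG on both strands. The core was found in 38.6% of all 32851 promoters. It was found in 11 of the 13 entries, of which 2 of Aldoa lie 76 bases apart and hold the same match, and in 8 of the 9 entries nearest each gene's principal start. The exception was Pkm, whose match lay in an entry 859 bases from that start. The E-box was found in 6.02% of all promoters and in 1 of the 13 entries, of Ldha, 1327 bases from its principal start. The sequences of Hk2 (chr6:82774455-82774704, minus strand) and Pgk1 (chrX:106186850-106187099, plus strand) are shown because both hold the core at 2 places, in capitals as read on the printed strand, while Hk2 was lower and Pgk1 higher per gene read in the CD34-positive gate.
Hk2: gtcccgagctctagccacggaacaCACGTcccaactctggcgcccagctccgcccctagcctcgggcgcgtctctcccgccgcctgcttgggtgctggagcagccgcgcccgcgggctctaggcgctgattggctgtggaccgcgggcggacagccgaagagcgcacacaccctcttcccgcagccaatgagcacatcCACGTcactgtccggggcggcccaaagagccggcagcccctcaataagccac
Pgk1: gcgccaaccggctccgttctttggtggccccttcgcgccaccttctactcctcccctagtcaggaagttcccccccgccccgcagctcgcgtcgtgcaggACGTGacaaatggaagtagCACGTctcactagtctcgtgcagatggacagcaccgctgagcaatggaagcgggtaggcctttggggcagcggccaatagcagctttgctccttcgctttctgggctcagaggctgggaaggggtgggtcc
A match is a run of letters and not a site shown to be bound.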

How the data were processed

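The authors deposited 1 table of whole read counts per gene and cell, not normalized, from polyadenylated RNA of 94 single cells amplified by 19 PCR cycles and read as 50 bp single ends, per the labels' protocols. GSNAP, HTSeq 0.5.3p3 and mm10 are named in the submitters' processing notes. The annotation release and strand setting are not given in the sources used here, so overlapping genes are uncertain. Of all reads, 32.4% were in genes, 3.97% ERCC, 7.68% ambiguous, 33.0% in no gene and 22.9% not aligned. Symbols came from a name table by gene identifier.

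Cells with at least 50000 gene reads, 1000 genes, under 20% mitochondrial and under 50% ERCC reads were kept. No doublet caller was run, since cells were sorted singly. Reads were summed over the cells of a gate. A log2 ratio (CD34-positive over CD34-negative) per gene read is of CPM plus 1 CPM, and per ERCC read is without a pseudocount. Intervals are 95%: exact Poisson for sums, exact binomial (Clopper-Pearson) for shares and order statistics for medians. Reads carry no molecular identifiers, so intervals of sums cover counting error only. Those of detection shares and of medians over cells cover the sampling of cells. Those of isozyme shares have reads as their units and cover counting error only. None covers differences between mice. Genes read in 10 or more kept cells were compared. Detection used 200000 drawn gene reads per cell.

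The members and lists were chosen with earlier results of these data known. Named beside the members were the 2 highest and 2 lowest ratios of each pathway list among genes with 10 CPM in a gate, 8 direct partners (Hif1a, Myc, Hk1, Hk3, Gpi1, Tpi1, Eno1 and Slc16a3), and genes by rank correlation. Sequence windows (bwa 0.7.19, GENCODE M21 transcripts, no genome sequence used), reads of copies, the promoters, the isozyme shares, the cell-level relations the values without cell 10 and those of the named pathway genes with each cell left out were chosen after the data were seen. The calculation was tested on simulated counts. Alternatives used scran 1.30.0 and edgeR 4.0.16 (TMM factors only) in R 4.3.3; the rest ran in Python 3.11.15.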

Additional observations from a re-analysis of the deposited data

Results flagged for a closer look

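The 2 cells left out for low depth were used in no comparison but the setting run without the cell filter. Cell 20 of the CD34-negative gate, with 24565 gene reads, had 2 reads in the 10 glycolysis genes, 1 in Hk2 and 1 in Pkm, a summed level of 81.4 CPM, below all kept CD34-negative cells but cell 10. Cell 3 of the CD34-positive gate, with 31504 gene reads, had 78 reads in 9 of the 10 genes, a summed level of 2476 CPM, which lies within the range of the kept cells of its gate. It had a read in each member but Pgam1.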

How the results depend on the processing

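No paired analysis was possible because the labels do not say that a shared cell number pairs cells and each gate counted as 1 sample with no test. The median log2 difference of the 10 genes per gene read stayed negative under all settings run, from -0.73 without Gapdh, Pgk1 and Pgam1 to -0.26 with cells numbered 7 to 42, and from -0.42 to -0.30 with each cell left out in turn. It was -0.59 with scran and -0.57 with TMM factors, which move the median of all genes from 0.19 to 0.00 and 0.02. Per ERCC read it stayed positive, from 0.23 without those 3 genes to 0.76, and from 0.54 to 0.69 with each cell left out. The number of genes higher by at least 1 log2 unit per gene read, 1, was 0 with a pseudocount of 10 CPM and 0 with the reads of copies added, and the cause of the first is the construction of the pseudocount at low levels. The number lower per gene read, 3, was 2 with a pseudocount of 10 CPM, without cells 25 and 36 (also with cell 10 left out), and without the top cell of each gene, and the number higher per ERCC read, 3, ran from 2 with the reads of copies added to 4 with cells numbered 7 to 42. The number lower per ERCC read, 0, was 1 (Slc2a3, at -2.06) by the ratio of medians over cells, which also moved Pgk1 from 1.54 to 2.33 and where Slc2a1 could not be computed because both medians are 0. Slc2a1 per ERCC read and Pgam1 and Pkm per gene read changed sign under some settings. The median number of members found per cell was 8 in both gates and the difference stayed 0 or, with 10 reads counted as found, -0.5. Low counts limit Gapdh, Pgk1, Pgam1 and Slc2a1 most.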
